A study of Danio rerio with 48 samples.

Results

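The period genes and their partner repressors belong to the negative limb of the circadian clock, and 10 of them were followed through 48 zebrafish brain libraries. They were chosen by name and not by a cut on their values, though earlier results of these data were known. The names were per1a, per1b, per2, per3, ciarta, ciartb, cipca, cipcb, bhlhe40 and bhlhe41. These names gave 10 of the 32520 Ensembl gene IDs in the count files, 4 period genes and 6 partners. per2 and per3 are listed as PER2 and PER3, and bhlhe40 and bhlhe41 as BHLHE40 and BHLHE41. For per1a and per1b the name table holds 2 IDs that are both called PER1, ENSDARG00000012499 and ENSDARG00000056885, and the sources used here do not say which is which, so both are given by ID. All 10 passed the filter on low counts in every main fit.

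In the vertebrate clock, a dimer of CLOCK and BMAL proteins binds E-box sequences and switches on period and cryptochrome genes, whose proteins then enter the nucleus and switch that dimer off, so that transcripts of the loop rise and fall over the day. Further repressors act on the same dimer: CIART (also called CHRONO) and CIPC bind to it, as worked out in mouse, and the basic helix-loop-helix proteins BHLHE40 and BHLHE41 (DEC1 and DEC2) compete with it at E-boxes. In zebrafish, tissues keep time on their own and respond to light directly, and per2 is the period gene that light induces.

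Adult AB-line fish were sampled in 3 generations: F0 founders of a series on early-life exposure to permethrin at 10 µg/L, a pyrethroid insecticide that acts on voltage-gated sodium channels, and their F1 and F2 descendants, which were not exposed. Each generation held females (F) and males (M) of 2 source codes, PH and SCA, which were read as the permethrin lineage and its control although the labels do not spell this out. This gave 12 groups of 4 libraries, each the whole brain of a fish, named here by generation, sex, code and number (F1_F_PH 1). The sources used here give neither the hour of dissection nor the lighting, the exact age, the tanks or the parents of the fish. The p-values therefore cover only the variation among the fish sampled.

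Counts in genes ran from 7655597 to 8072588 per library in F0, from 4802827 (F1_F_PH 1) to 10032850 (F1_F_PH 2) in F1 and from 7381621 to 7680352 in F2. Levels are CPM (counts scaled to a common library size) on trimmed-mean (TMM) library sizes over all 48 libraries, and are compared here within a gene only, as transcript lengths were not used. A neuron list had all 11 of its IDs at a mean of at least 1 CPM (summed level 9990 to 14300 CPM) and a glia list 9 of 10 IDs (9930 to 23800 CPM). Summed markers of photoreceptors and lens ranged from 8.14 to 8100 CPM, the highest in F0_F_SCA 18, those of muscle from 2.66 to 1150, the highest in F2_F_SCA 8, and those of the pineal gland, a light-sensing clock organ, from 9.21 to 86.3. In whole brains, fewer cells that express a gene and less of its RNA per cell cannot be told apart.

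Among SCA fish, 9 of the 10 genes were lower in F2 than in F0 and PER2 was not. The question was how stable the genes are in control brains of different generations, and the median log2 difference was -1.39 over the members and 0.01 over all 19062 genes in the joint fit. Of all genes, 10.8% were called in either direction and 4.4% were called lower. Calls needed an adjusted p (Benjamini-Hochberg) under 0.05 in edgeR's quasi-likelihood test, which gives every adjusted p below unless another tool is named. Every share of all genes called comes from the main edgeR fits. None is given for DESeq2, limma voom or an alternative fit, so member counts from those have no background share here. The levels of all 10 genes in each fish are shown in the plot of CPM by group.

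**Figure D1:**
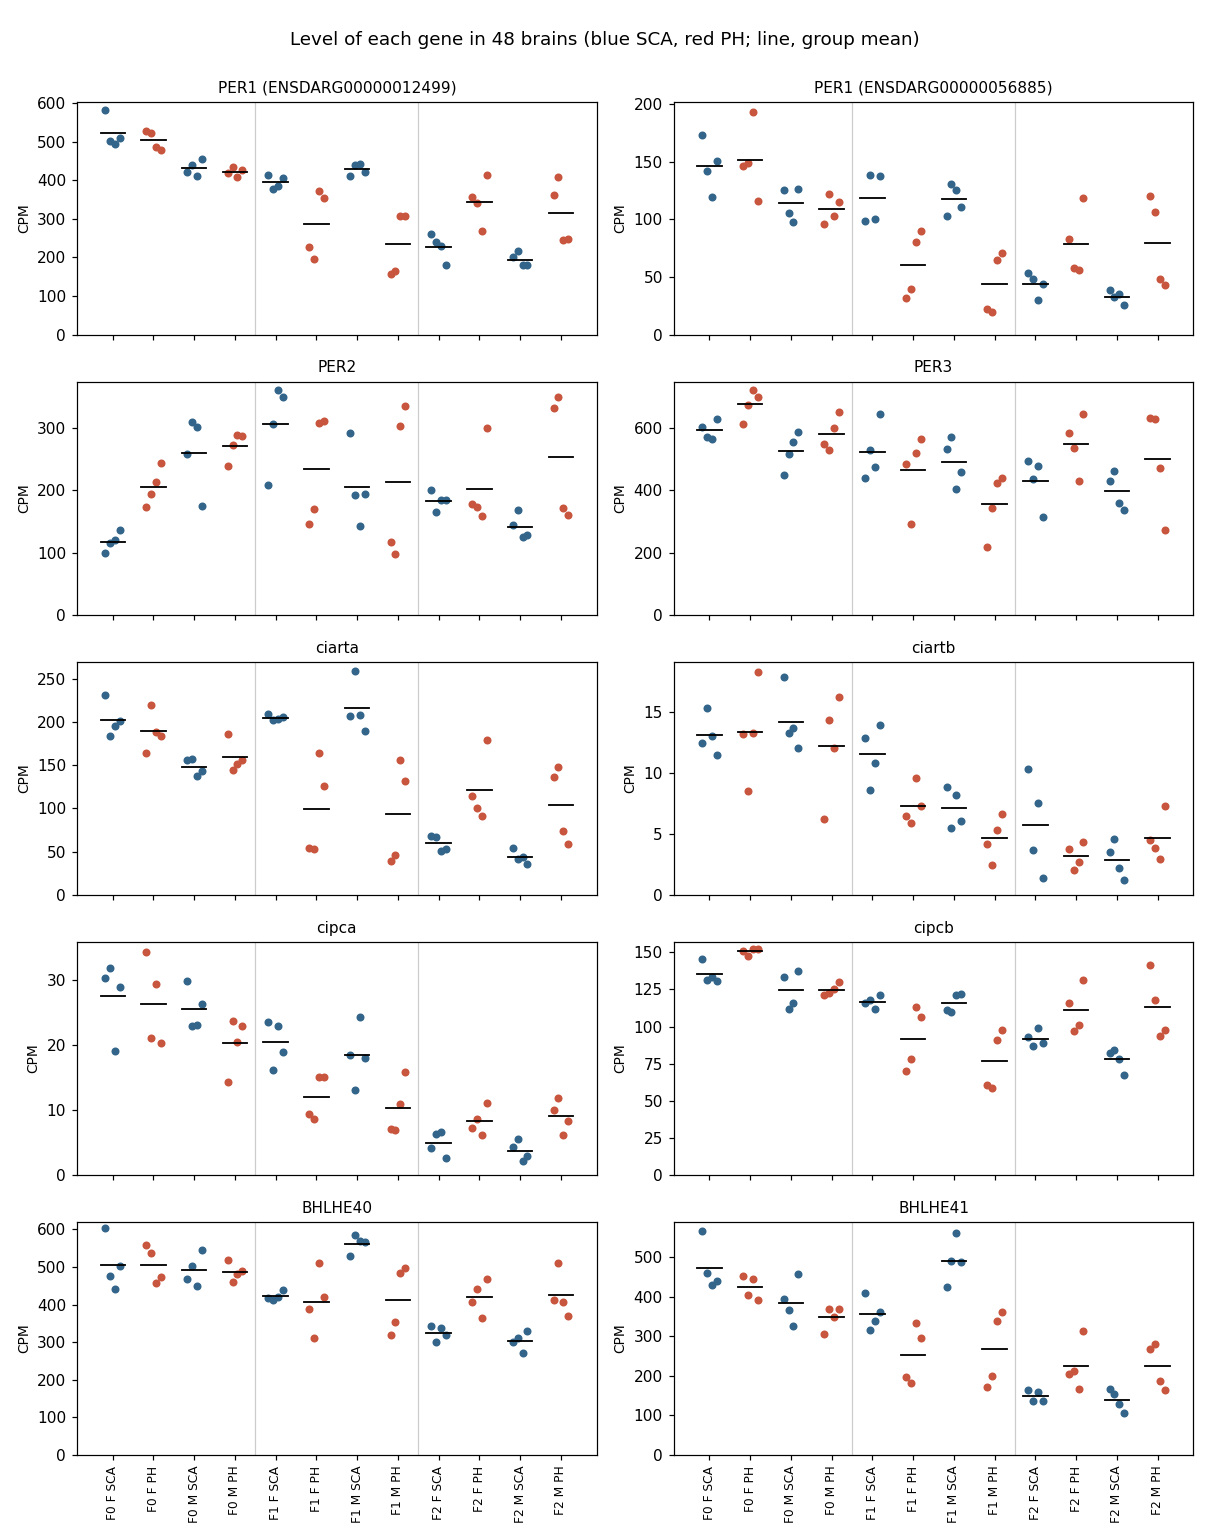
CPM (linear axis from 0) of the 10 genes in 48 libraries, 4 points per group, blue for SCA and red for PH, with the group mean as a line; F, females; M, males. In F2 the SCA fish of 8 genes lie below every F0 SCA fish, and in F1 the PH groups are spread while the SCA groups are tight for most genes.

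For PER1 ENSDARG00000012499, the 8 SCA fish of F0 ranged from 410 to 582 CPM (median 473), those of F1 from 376 to 442 (412) and those of F2 from 180 to 260 (208). Every F2 fish lay below every F0 fish, a log2 difference of -1.19 ± 0.13 (SE, adjusted p = 1.81e-08). PER1 ENSDARG00000056885 had medians of 126, 118 and 36.6 CPM and also did not overlap between F2 and F0 (-1.77 ± 0.24, adjusted p = 3.92e-06). PER3 overlapped, with 448 to 589 CPM in F0 males, 565 to 630 in F0 females and 315 to 495 in both sexes of F2 (-0.44 ± 0.14, adjusted p = 0.0385). PER3 kept its call in 38 of 48 fits that left out 1 library each. PER2, the light-induced member, had medians of 155, 251 and 166 CPM, and its F2 against F0 difference of -0.13 ± 0.21 was not called (adjusted p = 0.722).

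The partner repressors were each called lower in F2. cipca ranged from 18.97 to 31.8 CPM in SCA fish of F0, 13.0 to 24.3 in those of F1 and 2.09 to 6.61 in those of F2, the steepest difference of the 10 genes (-2.64 ± 0.21, adjusted p = 1.53e-11). Its paralogue cipcb fell less, with 112 to 145 CPM in F0 but 67.6 to 98.8 in F2 (-0.63 ± 0.09, adjusted p = 2.56e-05). Neither gene overlapped between these generations. ciarta had medians of 170, 206 and 52.1 CPM (-1.77 ± 0.23, adjusted p = 1.48e-06) and ciartb of 13.1, 8.70 and 3.56 CPM (-1.75 ± 0.26, adjusted p = 2.69e-05). ciartb is the gene with the fewest reads, 8 to 150 counts per library, so its levels carry the most counting error. In F2 SCA fish cipca was as low, at a mean of 4.28 CPM like ciartb, so its F2 levels also carry much counting error. BHLHE41 was at 325 to 566 CPM in F0 but 106 to 166 in F2 (-1.58 ± 0.14, adjusted p = 3.73e-10), and BHLHE40 441 to 603 in F0 and 271 to 342 in F2 (-0.68 ± 0.09, adjusted p = 1.14e-06).

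In all, 8 of 10 genes had F2 SCA fish wholly below F0 SCA fish, against 0.231% of all genes. Against F1, 9 of 10 were again lower in F2 (29.1% of all genes called, 14.7% lower), all but PER3 at -0.30 ± 0.14 (adjusted p = 0.118), and 7 did not overlap (2.37% of all genes). PER2 was among those called, at -0.64 ± 0.21 (adjusted p = 0.0187). The largest of these differences were cipca at -2.18 ± 0.21 and ciarta at -2.04 ± 0.23. Both comparisons use the same F2 SCA fish. Between F1 and F0, 2 genes were called, PER2 at 0.51 ± 0.21 (adjusted p = 0.0467) and cipca at -0.46 ± 0.19 (adjusted p = 0.0464), where 43.0% of all genes were called, and 0 of 10 did not overlap (9.1% of all genes). With no filter on low counts neither was called. The lane in the file names was L4 for F0 SCA females, L2 for F0 SCA males and L3 for all F2 SCA fish, and no lane is given for F1. All F1 libraries also had a larger share of counted reads in genes (34.8 to 36.6%) than any F0 or F2 library (at most 34.0%). What this share does to the comparisons with F1 was not tested. Generation, lane and day of dissection cannot be told apart in these comparisons. The hour of dissection is not known for any fish, and its part here and in the PH contrasts below was not tested.

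**Figure D2:**
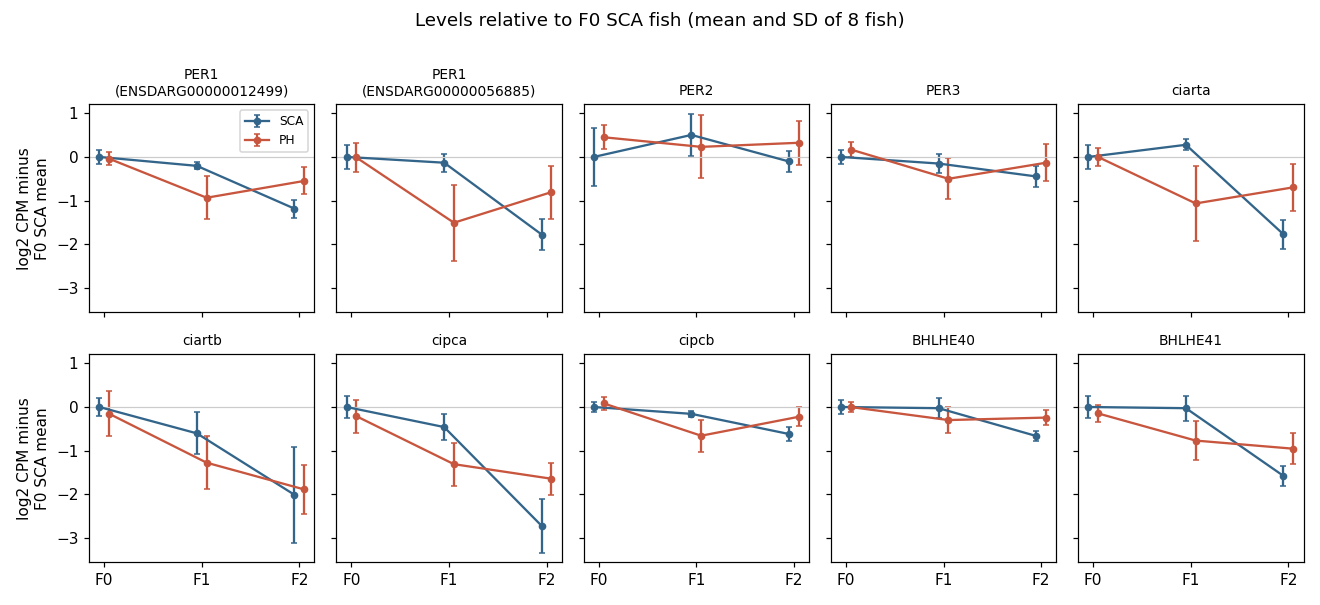
Mean of log2 CPM in 8 fish (both sexes) minus the F0 SCA mean, by generation, with bars of 1 SD, blue for SCA and red for PH. The SCA lines drop from F1 to F2, furthest for cipca. The PH lines of both PER1 genes, PER2, PER3, ciarta, cipcb and BHLHE40 are lowest in F1, by little for PER2 and BHLHE40. Those of ciartb, cipca and BHLHE41 are lowest in F2.

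In exposed F0 fish, none of the 10 genes was called against SCA in females, in males or over both sexes, nor was any other gene (0.0% of 18081 in each). Before adjustment, 1, 0 and 3 of the 10 had a p under 0.05, against 5.09, 6.06 and 7.46% of all genes, while DESeq2 called 1, 0 and 0 members and limma voom 0 in each. The 1 gene was PER2 in females. It held 174, 194, 214 and 244 CPM in F0_F_PH 10, 9, 15 and 16 and 99.3, 116, 120 and 136 CPM in F0_F_SCA 14, 15, 16 and 18. All 4 exposed females thus lay above all 4 SCA females, with a log2 fold change of 0.80 ± 0.16 (SE, n = 4 each), an edgeR adjusted p of 0.411 and a DESeq2 call. For cipca and ciartb DESeq2 gave no adjusted p in F0 females, so neither could be called there.

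In F0 males, PER2 held 239, 273, 290 and 287 CPM in PH fish 12, 17, 19 and 22 and 258, 310, 301 and 174 in SCA fish 2, 6, 10 and 17, which overlap (0.04 ± 0.15). The difference of the PER2 contrast between the sexes was 0.76 ± 0.22 and was not called (adjusted p = 0.999), and 0 of 10 genes were called for that difference (0.0% of all genes, with 1 of 10 and 3.2% of all genes at an unadjusted p under 0.05, and 0 by DESeq2 or voom). cipcb was the other gene whose F0 females did not overlap, 148 to 152 CPM in PH fish against 131 to 145 in SCA fish (0.14 ± 0.07, adjusted p = 0.979). Such a separation was found for 2 of 10 members in females (3.53% of all genes), 0 in males (3.58%) and 0 over both sexes (0.0442%). The other 8 genes had log2 fold changes between -0.35 and 0.18 in either sex. In F0 males the PH libraries carry lane L4 in their file names and the SCA libraries lane L2, and the effects of lane and code in males cannot be told apart, while all F0 females carry L4.

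Females and males of F0, over both codes, differed in 6 of the 10 genes, 5 higher and 1 lower in females (4.85% of all genes called, 2.01% higher and 2.84% lower). PER1 ENSDARG00000012499 held 479 to 582 CPM in the 8 females (mean 512) and 407 to 454 in the 8 males (426), with no overlap and a log2 difference of 0.28 ± 0.05 (adjusted p = 0.00287). The share of all genes whose sexes did not overlap was not taken. PER2 went the other way, with a mean of 162 CPM in females and 267 in males, a difference of -0.76 ± 0.11 (adjusted p = 0.00141). The 4 SCA females were the lowest PER2 group of all 12. The sum of the glia markers differed by sex in SCA fish, at 10610 to 13820 CPM in females and 17830 to 19160 in males with no overlap. PH females held 9933 to 13290 CPM and PH males 11760 to 23850, which overlap. The largest part of this sum was 1 gene, mbpa, at 4780 to 18800 CPM over all libraries, where no other glia ID exceeded 2860. The single glia genes are not given by sex, so the sum does not speak for glia markers in general. Of the 10 glia IDs, 9 had a mean of at least 1 CPM, SLC1A2 (ENSDARG00000052138) did not, and the part of glia in these sex differences was not tested.

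The remaining sex differences in F0 were modest. ciarta averaged 196 CPM in females and 154 in males (0.37 ± 0.07, adjusted p = 0.00729), PER1 ENSDARG00000056885 149 and 112 (0.44 ± 0.10, adjusted p = 0.0248), BHLHE41 448 and 367 (0.31 ± 0.08, adjusted p = 0.033) and cipcb 143 and 125 (0.21 ± 0.05, adjusted p = 0.0211). All 4 overlapped between the sexes. PER3, cipca, ciartb and BHLHE40 were not called, at 0.21 ± 0.06, 0.26 ± 0.14, 0.02 ± 0.18 and 0.07 ± 0.07. Within PH fish, which share lane L4, 0 of 10 were called and PER2 stood at -0.38 ± 0.15 (adjusted p = 0.434), PER1 ENSDARG00000012499 at 0.28 ± 0.07 (adjusted p = 0.127). Within SCA fish, whose sexes differ in lane, 3 were called, PER2 at -1.13 ± 0.16 (adjusted p = 0.0041), PER1 ENSDARG00000012499 at 0.29 ± 0.07 (adjusted p = 0.0401) and ciarta at 0.47 ± 0.10 (adjusted p = 0.0294). Without F0_F_SCA 18, F0_M_PH 12 and F0_M_SCA 6, which an earlier analysis of these data found apart, the same 3 were called. The 4.85% of all genes above belongs to the comparison over both codes. No such share is given for the comparisons within a code or without these libraries.

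Sex differences of later generations were not called for any member. In F1, where 3.45% of all genes were called, 0 of 10 passed. Only 1 had an unadjusted p under 0.05 (21.6% of all genes), and DESeq2 and voom each called 1. That gene was ciartb, with means of 9.42 CPM in females and 5.88 in males (0.70 ± 0.19, adjusted p = 0.0514). In F2, 0 of 10 passed (0.114% of all genes called), with PER2 at 0.02 ± 0.17. There 0 had an unadjusted p under 0.05 (9.11% of all genes), and DESeq2 and voom called 0.

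In unexposed F1 offspring, all 10 genes had log2 fold changes below 0 over both sexes of the PH lineage, yet 0 of 10 were called (0.68% of all genes). The median was -0.66 over the members and -0.02 over all 18094 genes. In edgeR 8 had an unadjusted p under 0.05 (11.4% of all genes). DESeq2 called 6 of the 10 and voom 5, for which no share of all genes is given. In females 0 of 10 were called (0.0663% of all genes), and 0 by DESeq2 or voom. There 6 members had an unadjusted p under 0.05 (7.94% of all genes). In males 0 of 10 were called (0.105%), while 9 had an unadjusted p under 0.05 (8.94% of all genes). DESeq2 called 2 in males and voom 0. Group ranges did not overlap, with PH fish below SCA fish, for 4 members in females (2.59% of all genes), 6 in males (2.16%) and 3 over both sexes (0.122%).

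PER1 ENSDARG00000012499 shows how these PH fish were spread. F1_F_PH 1, 2, 9 and 10 held 226, 195, 371 and 353 CPM, and F1_F_SCA 4, 6, 7 and 8 held 414, 376, 385 and 405. F1_M_PH 4, 6, 7 and 8 held 157, 166, 307 and 308 CPM, and F1_M_SCA 5, 14, 10 and 12 held 410, 438, 442 and 422. In both sexes every PH fish lay below every SCA fish. Fish 1 and 2 in females and 4 and 6 in males were the lowest, fish 9 and 10 in females came close to the lowest control, and fish 7 and 8 in males stayed well below theirs. Over both sexes the log2 fold change was -0.67 ± 0.16 (SE, n = 8 each, adjusted p = 0.0667).

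ciarta, whose protein binds the CLOCK dimer in mouse, had the same fish at its ends. Female PH fish 1, 2, 9 and 10 held 53.8, 52.5, 164 and 126 CPM against 202 to 209 in SCA females, and male PH fish 4, 6, 7 and 8 held 39.6, 46.4, 156 and 131 CPM against 190 to 259. No PH fish reached the lowest SCA fish, and the log2 fold change over both sexes was -1.13 ± 0.31 (adjusted p = 0.144). PER1 ENSDARG00000056885 ran from 31.6 to 90.2 CPM in PH females and from 19.2 to 70.7 in PH males, against 98.8 to 138 and 103 to 131 in SCA fish (-1.20 ± 0.29, adjusted p = 0.0902). Fish 1 and 2 in females and 4 and 6 in males were the lowest of their groups for this gene too.

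The other partners had smaller differences than ciarta over both sexes. The lowest adjusted p of the 10 belonged to cipca, 6.97 to 15.9 CPM in PH fish and 13.0 to 24.3 in SCA fish (-0.81 ± 0.19, adjusted p = 0.0591), followed by BHLHE41, 171 to 361 against 316 to 562 CPM (-0.69 ± 0.16, adjusted p = 0.0654), and cipcb, 58.5 to 113 against 110 to 122 CPM (-0.47 ± 0.12, adjusted p = 0.0682). Over both sexes each overlapped between the codes. Within a sex, cipca in females and BHLHE41 and cipcb in males were among the members counted above whose ranges did not overlap. ciartb stood at -0.65 ± 0.19, PER3 at -0.32 ± 0.16, BHLHE40 at -0.25 ± 0.10 and PER2 at -0.17 ± 0.28. PER2 nevertheless had the same low fish, 146 and 171 CPM in F1_F_PH 1 and 2 and 117 and 98.2 in F1_M_PH 4 and 6, against 309, 312, 304 and 336 in F1_F_PH 9 and 10 and F1_M_PH 7 and 8, while its SCA fish ranged from 143 to 362.

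Of the low fish, F1_F_PH 1 had the fewest counts of all libraries and F1_F_PH 2 the most, and F1_M_PH 4, 6, 7 and 8 had 8843330, 8437089, 8605079 and 8529185. Summed pineal markers ranged from 9.21 to 21.4 CPM in F1_M_PH and from 10.5 to 23.4 in F1_M_SCA, and from 14.6 to 36.7 in F1_F_PH and 10.98 to 64.4 in F1_F_SCA, and their part in the result was not tested. Leaving out single libraries gave 0 to 4 calls over both sexes, with 4 without F1_M_PH 8, and 0 without F1_F_PH 1. The difference of the F1 contrast between the sexes was called for 0 of 10 genes (0.0% of all genes), and the widest was PER2 at -0.45 ± 0.57. For that difference 0 members had an unadjusted p under 0.05 (5.11% of all genes), and 0 were called by DESeq2 or voom.

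In F2, 5 of the 10 genes were called higher in PH fish than in SCA fish over both sexes (1.1% of all genes called, 0.691% higher). These were ciarta, BHLHE40, both PER1 genes and BHLHE41. The median log2 fold change was 0.56 over the members and 0.01 over all 17505 genes, and 9 of 10 lay above 0. Before adjustment, 8 of the 10 had a p under 0.05, against 23.7% of all genes. The F2 SCA fish of this contrast are the ones that stood below F0 and F1 SCA fish above.

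ciarta held 114.5, 101, 91.7 and 180 CPM in F2_F_PH 3, 4, 5 and 16 and 68.1, 67.2, 50.7 and 53.5 in F2_F_SCA 4, 6, 8 and 9. In males it held 137, 148, 74.3 and 59.2 CPM in F2_M_PH 11, 12, 6 and 9 and 54.6, 41.6, 44.0 and 35.0 in F2_M_SCA 3, 5, 7 and 10. Within each sex every PH fish lay above every SCA fish, and the log2 fold change over both sexes was 1.13 ± 0.19 (SE, n = 8 each, adjusted p = 0.0117). F2_F_PH 16 and F2_M_PH 12 reached the range of F0 SCA fish (137 to 231 CPM), and the other 6 PH fish lay below it.

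BHLHE40 was the only member whose codes did not overlap over both sexes, 364 to 512 CPM in 8 PH fish and 271 to 342 in 8 SCA fish (0.42 ± 0.07, adjusted p = 0.0131). PER1 ENSDARG00000012499 held 357, 340, 268 and 412 CPM in PH females 3, 4, 5 and 16 against 180 to 260 in SCA females, and 362, 408, 245 and 248 in PH males 11, 12, 6 and 9 against 180 to 216 in SCA males (0.64 ± 0.12, adjusted p = 0.0212). F2_F_PH 5 and F2_M_PH 6 and 9 were the PH fish nearest to the controls, and in ciarta F2_F_PH 5 and F2_M_PH 6 and 9 were again the lowest of their groups. PER1 ENSDARG00000056885 held 42.8 to 121 CPM in PH fish and 25.6 to 53.7 in SCA fish (1.05 ± 0.23, adjusted p = 0.0406), and BHLHE41 165 to 314 and 106 to 166 (0.64 ± 0.15, adjusted p = 0.0457).

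The other 5 genes were not called. cipcb at 0.40 ± 0.09 (adjusted p = 0.0507) and cipca at 1.002 ± 0.24 (adjusted p = 0.0537) came closest, and DESeq2 called both (adjusted p = 0.00988 and 0.00582). PER2 stood at 0.48 ± 0.17, PER3 at 0.33 ± 0.16 and ciartb at -0.09 ± 0.37. PER2 was at 300 CPM in F2_F_PH 16, far above 178, 173 and 158 in the other PH females, and at 333 and 350 in F2_M_PH 11 and 12 against 172 and 161 in F2_M_PH 6 and 9. SCA fish ranged from 126 to 201 CPM for this gene, so the codes overlapped.

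In single sexes no member was called in F2. Females had 0 of 10 called (0.137% of all genes), 6 at an unadjusted p under 0.05 (20.9% of all genes), 1 by DESeq2, ciarta at 1.003 ± 0.27 in edgeR (adjusted p = 0.123), and 0 by voom. Males had 0 of 10 called (0.0171%), 8 with an unadjusted p under 0.05 (8.81%), and 6 calls from DESeq2 and 0 from voom, with the lowest adjusted p of 0.178 for BHLHE40 at 0.49 ± 0.10. Ranges did not overlap, PH above SCA, for 5 members in females (5.86% of all genes), 6 in males (2.45%) and 1 over both sexes (0.229%). The difference of the F2 contrast between the sexes was called for no member (0 of 10, 0.0114% of all genes), and ciartb had the widest gap at -1.54 ± 0.73. For that difference 0 members had an unadjusted p under 0.05 (5.67% of all genes), and 0 were called by DESeq2 or voom.

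The number of F2 calls over both sexes moved with the tool and with single libraries. DESeq2 and the edgeR fit of all 48 libraries each called 7, the genes above together with cipca and cipcb. No share of all genes is given for these alternatives. Of 16 fits that left out 1 library each, BHLHE40 and ciarta were called in 16, PER1 ENSDARG00000012499 in 15, PER1 ENSDARG00000056885 in 6 and BHLHE41 in 4, and voom called neither of the last pair (adjusted p = 0.0713 and 0.0618). The count was 2 without F2_M_SCA 7 and 7 without F2_M_PH 9 or F2_F_SCA 9. F2_F_PH 3 and 4 carry another lane in their file names than the other F2 libraries, and without them 0 genes were called, with ciarta at 1.21 ± 0.22 (adjusted p = 0.053) and BHLHE40 at 0.41 ± 0.09 (adjusted p = 0.0744). Without F2_F_SCA 8 and F2_M_PH 11, found apart in the same earlier analysis, 1 gene was called, BHLHE40 at 0.44 ± 0.08 (adjusted p = 0.0446).

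**Figure D3:**
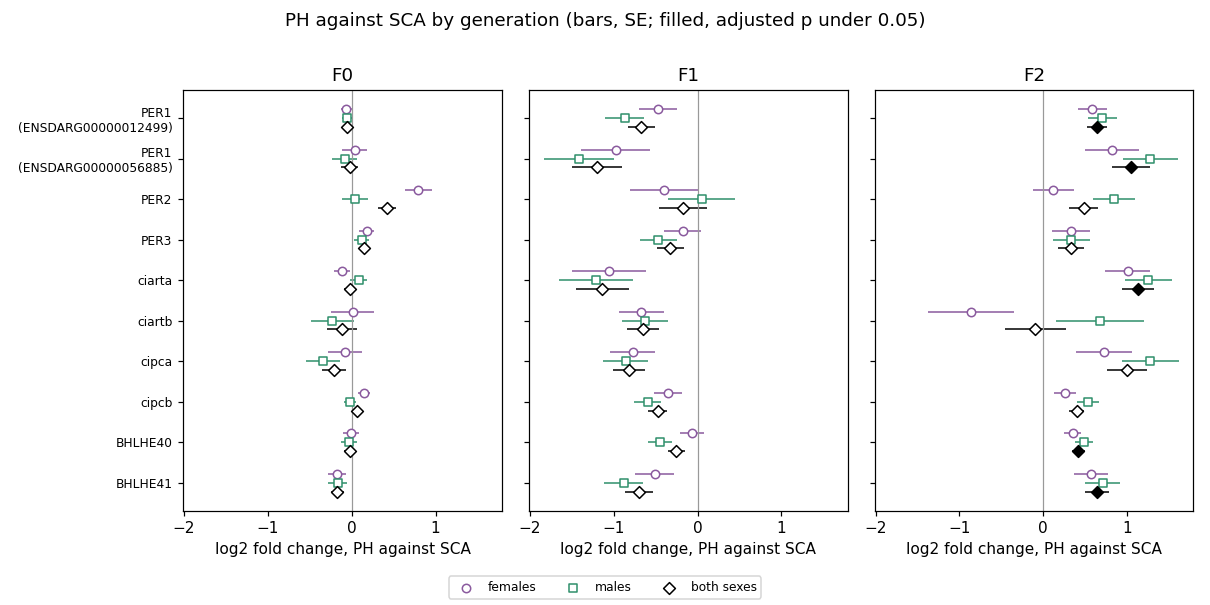
Log2 fold change of PH against SCA in each generation, with bars of 1 SE, for females (circles), males (squares) and both sexes (diamonds); filled symbols have an edgeR adjusted p under 0.05. In F0 the symbol farthest from 0 is PER2 in females (0.80), followed by PER2 over both sexes (0.42); in F1 all lie left of 0 except PER2 in males (0.05), and in F2 all lie right of 0 except ciartb in females (-0.86) and over both sexes (-0.09).

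The PH contrast was tested for a difference between the 3 generations in a fit of all 48 libraries. That fit takes 1 spread per gene for all 12 groups. In F1 the PH fish were more widely spread than the SCA fish for 10 of 10 members, as given below. What unequal spread does to these p-values was not tested. In males, 7 of 10 genes were called (0.21% of all genes): PER1 ENSDARG00000012499 (adjusted p = 0.00542), cipcb (0.00643), PER1 ENSDARG00000056885 and BHLHE41 (0.0141 each), ciarta (0.0177), BHLHE40 (0.0187) and cipca (0.0198). For PER1 ENSDARG00000012499 in males the log2 fold changes in this fit were -0.04 ± 0.18 in F0, -0.86 ± 0.18 in F1 and 0.715 ± 0.179 in F2. ciarta went from 0.10 ± 0.31 to -1.21 ± 0.31 and 1.27 ± 0.32. PER2, PER3 and ciartb were not called, with adjusted p-values of 0.653, 0.394 and 0.574.

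In females the same test called 0 of 10 genes (0.178% of all genes), with 8 at an unadjusted p under 0.05 (11.4% of all genes), and ciarta had the lowest adjusted p of 0.0752. Its contrasts in females in the same fit were -0.10 ± 0.31 in F0, -1.04 ± 0.31 in F1 and 1.03 ± 0.32 in F2. No test compared the sexes in this. The count in males was 2 without F2_M_PH 11 or without F1_M_PH 6, and PER1 ENSDARG00000012499 and cipcb were called in 48 of 48 fits that left out 1 library.

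The spread between fish of a group also differed between codes in the descendants. Within groups, the SD of log2 CPM was larger in PH than in SCA fish for 4 of 10 members in F0, 10 of 10 in F1 and 8 of 10 in F2, against 63.7, 44.5 and 43.7% of all genes. The median ratio of the PH to the SCA value was 0.80, 3.46 and 1.74 over the members and 1.18, 0.94 and 0.92 over all genes. In F1 the ratio was widest for PER1 ENSDARG00000012499, 0.50 in PH and 0.06 in SCA fish, followed by ciarta (0.93 and 0.14), BHLHE40 (0.31 and 0.05) and cipcb (0.36 and 0.07). A ratio over 2 was found for 6 of 10 members in F1 (5.98% of all genes) and 4 in F2 (7.78%), where PER2 led with 0.52 against 0.16. ciartb and cipca went the other way in F2, at 0.51 against 1.05 and 0.39 against 0.61. Both averaged 4.28 CPM in F2 SCA fish, the lowest of the members there, so counting error weighs on these values. These ratios describe 4 groups per generation and were not tested. The edgeR fits took 1 spread per gene for all their groups, so their p-values do not allow for such ratios.

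Pooled over the generations, the genes varied together between fish of a group. After subtraction of group means, Pearson's r of log2 CPM over 48 fish lay between 0.11 and 0.92 in the 45 pairs of genes, with a median of 0.64, and all 45 were above 0. The highest were 0.92 between PER1 ENSDARG00000012499 and ciarta and 0.90 between it and BHLHE41, and the lowest 0.11 between ciartb and BHLHE40. The values share library, depth and scaling, and are a description. Groups with a wide spread, such as the F1 PH fish, weigh more in them, and r was not taken for each code.

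The generations are given apart because F0 had other values. In F1 the median over pairs was 0.79 (0.31 to 0.98) and in F2 0.69 (0.02 to 0.96), but in F0 it was 0.14 (-0.66 to 0.88), with 30 of 45 pairs above 0, from 16 fish each. PER2 stood out in F0, with r of -0.66 with BHLHE40, -0.65 with BHLHE41 and with cipcb and -0.63 with PER1 ENSDARG00000012499, whereas over 48 fish its r was 0.50, 0.60, 0.70 and 0.73 with the same genes. Over the 12 group means the pairs had r from 0.17 to 0.99 with a median of 0.83.

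**Figure D4:**
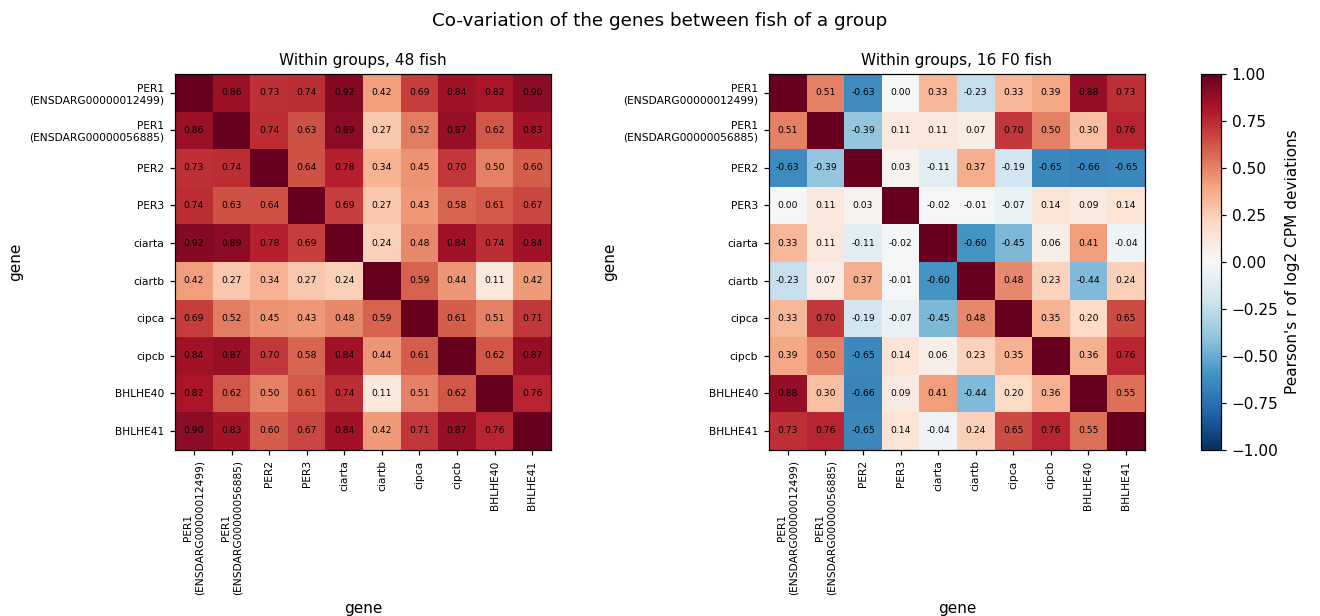
Pearson's r between genes, from log2 CPM minus the group mean, over 48 fish (left) and over the 16 F0 fish (right), on a colour scale from -1 (blue) to 1 (red). All pairs are positive on the left, and on the right the PER2 row is negative against PER1, BHLHE40, BHLHE41 and cipcb.

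Beyond the members, the genes most alike in this within-group variation were looked up among 17731 genes with a mean of at least 1 CPM. PER1 ENSDARG00000012499 was closest to CRY2, a cryptochrome and partner of period proteins (r = 0.91 over 48 libraries), NR1D1, the nuclear receptor REV-ERB alpha that represses BMAL genes (0.89), and si:ch211-132b12.7 (0.86). PER1 ENSDARG00000056885 was closest to si:ch211-132b12.7 (0.90), CRY2 (0.86) and dbpb, a PAR-domain output factor (0.84). PER2 was closest to CRY1 ENSDARG00000045768, another cryptochrome (0.88), lonrf1 (0.87) and NR1D1 (0.83). PER3 had weaker neighbours, ATXN1 ENSDARG00000060862 (0.74), NR1D1 (0.74) and HSF2, a heat shock factor (0.72).

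Partners were closest to 1 gene each as follows. ciarta had si:ch211-132b12.7 at 0.94, cipcb and BHLHE41 both had CRY2, at 0.89 and 0.86, and ciartb had si:ch211-80j13.1 at 0.85. BHLHE40 had ARG2, a mitochondrial arginase, at 0.80, and cipca had FBXO41 ENSDARG00000076310 at 0.66.

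The rest of the clock was followed with a list of 54 symbols, of which 49 IDs were found and 47 tested. None was called between codes in F0. In F1 over both sexes, 4 of 47 were called higher and 6 lower in PH fish (0.68% of all genes called), first the cryptochromes cry3b (1.34 ± 0.17, adjusted p = 0.00305) and cry3a (0.92 ± 0.13, adjusted p = 0.00333) and the activator BMAL1 ENSDARG00000006791 (0.76 ± 0.13, adjusted p = 0.0121). In males 4 were higher and 0 lower (0.105% of all genes called), the leading ones cry3b, NFIL3, a repressor of PAR-factor targets, and cry3a, and in females 0 and 1 (0.0663%), the nocturnin gene NOCT ENSDARG00000077726 (-1.79 ± 0.29, adjusted p = 0.0325).

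In F2 over both sexes 5 clock genes were called higher and 3 lower (1.1% of all genes called), led by nfil3-5, of the NFIL3 family (-0.80 ± 0.09, adjusted p = 0.00104), NR1D1 (1.23 ± 0.21, adjusted p = 0.0123) and NR1D2 (0.31 ± 0.06, adjusted p = 0.0131). In females 0 were higher and 2 lower (0.137% of all genes called), nfil3-5 (-1.07 ± 0.13, adjusted p = 0.00526) and usp2b (-2.11 ± 0.39, adjusted p = 0.0481), a deubiquitinase, and in males 0 were called (0.0171%). Among SCA fish, 11 of 47 were higher and 11 lower in F2 than in F0 (10.8% of all genes called, 4.4% lower), with cry3a at 1.63 ± 0.12, cry3b at 1.93 ± 0.17 and dbpb at -1.49 ± 0.14. Against F1, 12 were higher and 16 lower in F2 (29.1% of all genes called, 14.7% lower), led by BMAL1 ENSDARG00000035732 at 2.32 ± 0.19. Between F1 and F0, 10 were higher and 10 lower, 20 of 47, a share near that of all genes (43.0%).

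Some clock genes varied in the other direction from PER1 ENSDARG00000012499 over 48 fish, though not in every generation. cry3b averaged 27.3, 48.3 and 144 CPM in SCA females of F0, F1 and F2, and 41.3, 102 and 110 in PH females. The r of cry3b with PER1 ENSDARG00000012499 was -0.54 within groups, and that of BMAL1 ENSDARG00000006791 was -0.61. In the 16 F0 fish these were 0.11 and -0.12, and the r of cry3b with ciarta was 0.63. NR1D1, with r of 0.89 to the same PER1 gene, averaged 212.5, 253.5 and 61.8 CPM in SCA females and 226, 121 and 133 in PH females. Between the sexes of F0, 3 of 47 clock genes were higher and 3 lower in females where 4.85% of all genes were called (dbpb at 0.54 ± 0.09, cry3b at -0.72 ± 0.14 and cry5 at -0.53 ± 0.11 first), 3 and 1 in F1 (3.45%) and 0 in F2 (0.114%). The generation difference of the PH contrast was called for 7 clock genes in males (0.21% of all genes), first dbpb, cry3b and cry3a, and for 2 in females (0.178%), usp2b and USP2.

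Ordered over the 12 groups, 7 of the 10 genes had their lowest mean in F2_M_SCA: both PER1 genes, ciarta, ciartb, cipca, BHLHE40 and BHLHE41. PER3 and cipcb were lowest in F1_M_PH and PER2 in F0_F_SCA. The highest mean fell in F0 for PER1 ENSDARG00000012499 (F0_F_SCA), PER1 ENSDARG00000056885, PER3 and cipcb (F0_F_PH), ciartb (F0_M_SCA) and cipca (F0_F_SCA), and in F1 SCA fish for PER2 (females), ciarta, BHLHE40 and BHLHE41 (males). The highest mean was 7.46 times the lowest for cipca, 4.94 times for ciartb, 4.93 times for ciarta, 4.60 times for PER1 ENSDARG00000056885, 3.56 times for BHLHE41, 2.69 times for PER1 ENSDARG00000012499, 2.61 times for PER2, 1.96 times for cipcb, 1.91 times for PER3 and 1.86 times for BHLHE40. For 7 genes all 11 neighbouring pairs of groups in this order overlapped, and 10 of 11 did for PER1 ENSDARG00000012499 and BHLHE41 and 8 of 11 for cipcb. Sorting by mean sets like groups side by side, so overlap of neighbours says little about these genes. No share over all genes was taken for this overlap or for the lowest group.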

How the data were processed

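Whole brains of 48 adult zebrafish were extracted with a TriPrep kit and read in pairs by a BGISEQ-500 instrument, as the labels' protocols state. The deposited values are raw counts per Ensembl gene ID; STAR 2.7, HTSeq 0.11.2, DESeq2 1.24.0 and the build GRCz11 (danRer11) are named in the submitters' processing notes. The sources used here give no strand setting or annotation release, and reads of overlapping or antisense genes cannot be told apart. The 5 summary lines of each file stayed out. Genes took 31.4 to 36.6% of all counted reads, no feature 60.3 to 65.4%, ambiguous reads 0.306 to 0.602% and non-unique reads 2.40 to 3.12%. The share in genes was 32.1 to 34.0% in F0, 34.8 to 36.6% in F1 and 31.4 to 32.7% in F2. Of 32520 IDs, 29201 had a symbol in the name table.

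From the counts, each generation was fitted with edgeR 4.0.16 (R 4.3.3; filterByExpr, TMM, robust quasi-likelihood test, 4 group means), and the comparisons across generations in a fit of all 48 libraries. P-values were Benjamini-Hochberg adjusted over all genes tested, with a threshold of 0.05, and SE is that of the log2 fold change. Log2 CPM for spread and correlations used a prior count of 1 (alternative 5). No 2 libraries of a group agreed within sampling noise (lowest chi-square per degree of freedom 4.44). The script was tested on simulated counts.

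All 10 members are named. Of the clock list, up to 3 called genes with the smallest p are named per comparison; the closest genes by r are the first 3 for a period gene and the first for a partner, members left out. Members and lists were chosen with earlier results of these data known. Alternatives were DESeq2 size factors, no filter, all 48 libraries in 1 fit, 1 sex alone, DESeq2 1.42.0, limma 3.58.1 voom, libraries left out 1 at a time or by lane, and a replicate block. The F0 sex comparison within each code was added after seeing the data. Tables and plots were made with Python 3.11.15, pandas 2.3.3 and matplotlib 3.10.9.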

Additional observations from a re-analysis of the deposited data

Results flagged for a closer look

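PER2 in F2_F_PH 16, at 299.8 CPM, lay far from the other 3 fish of its group, with a gap of 0.859 of the group's range. It was the 1 such sample among 120 gene and group combinations, where chance flags about 1 in 20.

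The PH contrast differed between generations in males for 7 genes in the edgeR test of that difference, with adjusted p-values of 0.005421 for PER1 ENSDARG00000012499, 0.006427 for cipcb, 0.01414 for PER1 ENSDARG00000056885, 0.01414 for BHLHE41, 0.01767 for ciarta, 0.01866 for BHLHE40 and 0.01975 for cipca. This edgeR test takes the same spread for all groups of a gene, although the spread of PH and SCA fish differed in F1 and F2.

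For several genes all 4 PH fish lay below all 4 SCA fish in F1 and above them in F2. Of all genes, 2.16% lay wholly below in F1 males and 2.45% wholly above in F2 males. In females these shares were 2.59% and 5.86%. The share of all genes that did both was not taken. In males the F1 and F2 log2 fold changes were -0.8699 and 0.7022 for PER1 ENSDARG00000012499, -1.4146 and 1.2728 for PER1 ENSDARG00000056885, -1.2131 and 1.2523 for ciarta, -0.595 and 0.5342 for cipcb and -0.4464 and 0.4872 for BHLHE40. In females they were -0.4751 and 0.5807 for PER1 ENSDARG00000012499, -0.9771 and 0.8212 for PER1 ENSDARG00000056885 and -1.0543 and 1.003 for ciarta. The test over 3 generations did not call these in females, with adjusted p-values of 0.124, 0.208 and 0.0752.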

How the results depend on the processing

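Of the log2 fold changes of members under the alternatives, 2443 kept their direction and their side of the threshold, 124 kept the direction only and lost the call, 48 gained a call and 10 reversed, none of the 10 called. PER2 reversed in F0 males to -0.1043 without F0_M_SCA 17, in F1 males to -0.1561, -0.2453 and -0.0784 without F1_M_PH 7, F1_M_PH 8 or F1_M_SCA 10 and to -0.1102 with voom, and in F2 females to -0.1322 without F2_F_PH 16. BHLHE40 reversed in F1 females to 0.053 without F1_F_PH 2, and ciartb in F2 over both sexes to 0.1318 and 0.072 without F2_F_SCA 4 or F2_M_SCA 5 and to 0.0715 with voom. With 1 library left out, the values of these 5 results ran from -0.1043 to 0.1479 for PER2 in F0 males, -0.2453 to 0.2909 for PER2 in F1 males, -0.1322 to 0.2257 for PER2 in F2 females, -0.1688 to 0.053 for BHLHE40 in F1 females and -0.2518 to 0.1318 for ciartb in F2. Counts of members called moved as follows, with no share of all genes given for the alternatives. For the F0 sex comparison they were 1 with all 48 libraries, 3 without the libraries found apart, 0 in PH fish alone and 3 in SCA fish alone, and 4 to 7 with 1 library left out. For F1 males they were 4 with all 48 libraries and 2 with DESeq2, for F1 over both sexes 6, 6 and 5 with all 48 libraries, DESeq2 and voom and 0 to 4 with 1 library left out, and for the F1 sex comparison 1 with DESeq2, 1 with voom and 0 to 1 with 1 left out. For F2 females DESeq2 called 1 and for F2 males 6 (0 to 1 with 1 left out). For F2 over both sexes the counts were 7 with DESeq2, 7 with all 48 libraries, 3 with no filter and 3 with voom. They were 1 without the libraries found apart, 0 without the 2 on another lane and 2 to 7 with 1 left out. In SCA fish, F1 against F0 gave 0 with no filter and 0 to 3 with 1 left out. The generation difference gave 0 to 1 in females and 2 to 7 in males with 1 left out. The cause of these moves was not tested. In F0 females the fish share the numbers 15 and 16 (r of their deviations 0.124 and 0.125), too few to take as pairs. A replicate block there called 1 member and DESeq2 also 1, PER2 (0.93 ± 0.12, adjusted p = 0.00719 in edgeR with the block, on 1 residual degree of freedom before moderation). ciartb, at 8 to 150 counts per library, is the gene that depth limits most, and in F2 SCA fish cipca had the same mean CPM.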
